A study of Mus musculus with 12 samples.

Results

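Activins and transforming growth factor betas (TGF-betas) are secreted dimers that signal through paired type I and type II receptor kinases to SMAD transcription factors, and follistatins bind activin outside the cell and keep it from its receptors. In the developing lung the family is known for its part in branching, alveolar septation and matrix deposition, and in the gut for epithelial turnover and immune tolerance. The set described here holds 10 genes: the activin subunit genes Inhba and Inhbb, the follistatins Fst and Fstl3, the ligand genes Tgfb1, Tgfb2, Tgfb3 and Bmp4, and the receptor genes Tgfbr1 and Tgfbr2. Members were chosen by name, and every probe annotated to one of them was taken. Of the 10 genes, 9 had a named probe, with 16 probes in all, and Inhbb was not analysed here. All 9 were tested in the lung and 8 in the ileum, out of 11214 and 11178 genes tested there and 19057 genes with a named probe.

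The arrays came from neonatal C57BL/6 mice (C57Bl/6J in the study's methods) kept in normoxia (fraction of inspired oxygen, FiO2, 0.21) or in hyperoxia (FiO2 0.85) from postnatal day 3 and sampled at 14 days of age. Neither group carried a transgene or received another agent according to the labels. There were 4 groups of 3 arrays, one for lung and one for terminal ileum at each oxygen level. The labels name the right lung and the methods the left lower lobe, and pups of pooled litters were assigned to an exposure as a litter. No source states that the 3 arrays of a group came from separate animals, so p-values measure the spread between these arrays.

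On 6 of 12 arrays the source name gave the other tissue than the tissue label, which was used here. By that label the mean normalized log2 signal of 8 lung epithelial markers was 12.41 to 12.55 on lung arrays and 5.37 to 5.93 on ileum arrays, and that of 8 ileal epithelial markers was 11.09 to 12.06 on ileum arrays and 4.75 to 4.91 on lung arrays. Each array detected 19292 to 20839 of 45281 probes. Signal over background, the 95th percentile of intensity over the median of the array's probes with a detection p above 0.5, was 15.1 to 19.9 on lung arrays and 16.2 to 16.6 for the ileum under normoxia, but 11.8 to 13.7 under hyperoxia.

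Levels below are normalized log2 signals, and a difference of 1 on that scale is 2-fold. Changes are hyperoxia minus normoxia with their standard error (SE), and a gene was called changed at an adjusted p under 0.05 (limma, Benjamini-Hochberg over all genes tested). In hyperoxic lung 3 of the 9 tested members were called, all higher: Inhba, Fst and Fstl3. Over all genes tested in the lung 20.5% were called, 9.90% higher and 10.6% lower. In hyperoxic ileum 2 of 8 members were called, Tgfb1 lower and Tgfbr1 higher, beside 26.8% of all genes tested there (12.7% higher and 14.1% lower). The median change of the members was 0.03 in the lung and -0.10 in the ileum, beside 0.02 and -0.03 over all genes. Groups did not overlap for 2 of 9 members in the lung (43.3% of all genes) and for 3 of 8 in the ileum (40.1% of all genes). RNA was taken from whole tissue, where more cells of a type and more RNA per cell cannot be told apart.

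**Figure D1:**
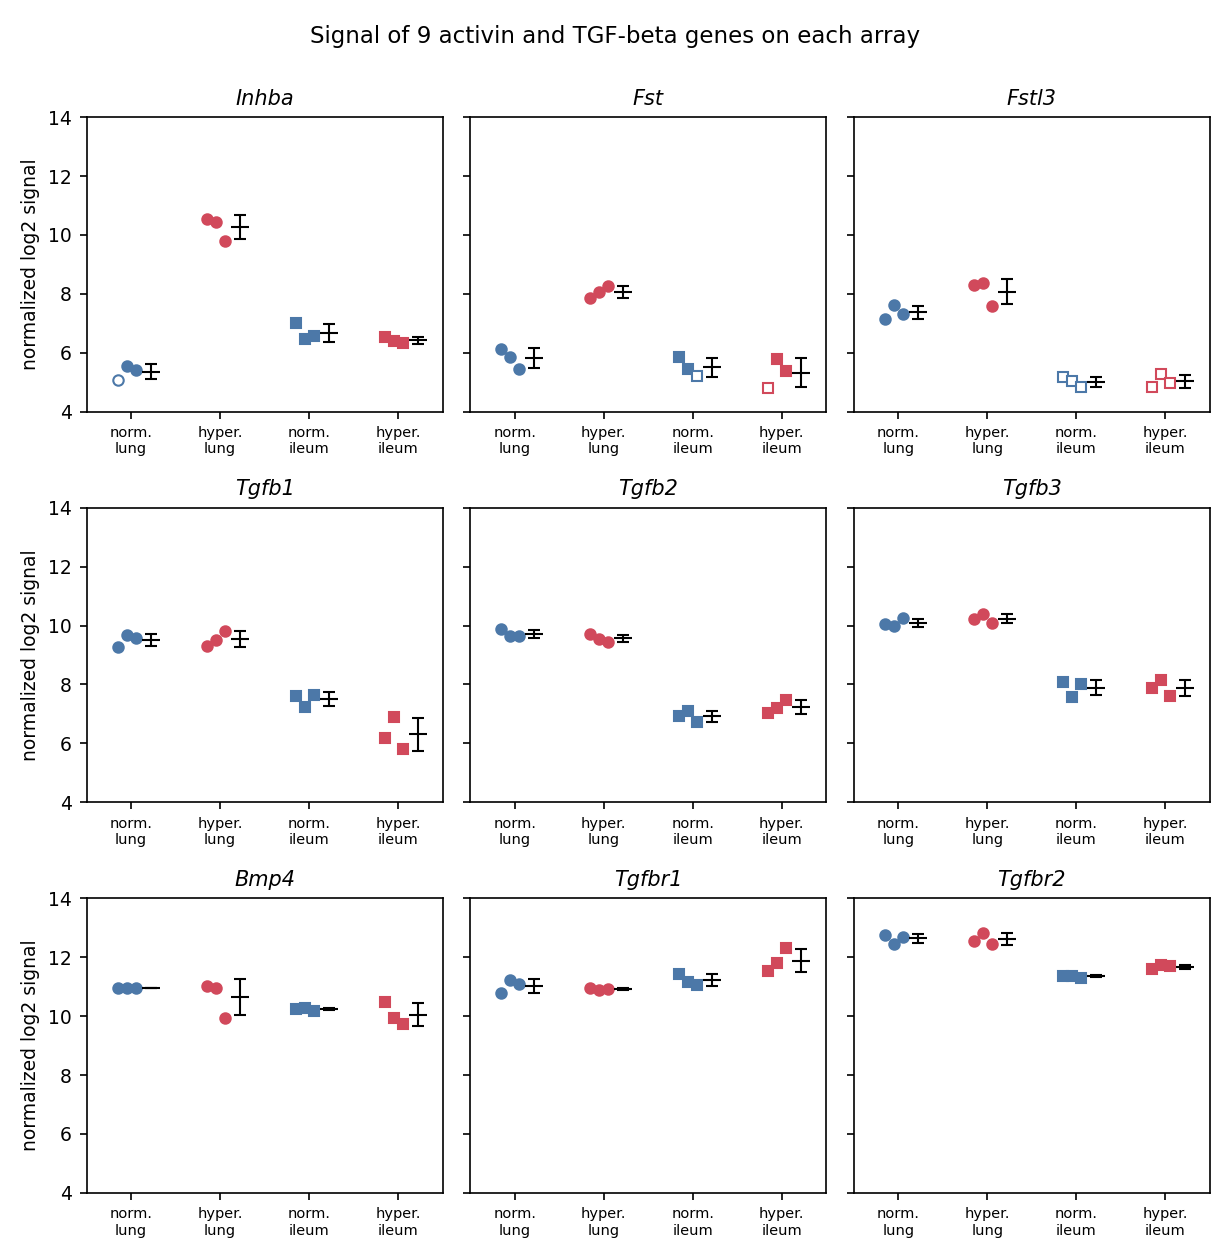
Normalized log2 signal (vertical axis) of the 9 measured genes on each of the 12 arrays, by group, with the mean and SD beside the points; normoxia is blue, hyperoxia red, and an open symbol is an array on which the probe was not detected (p-value of 0.05 or more). Inhba lies between 9.79 and 10.54 on the 3 hyperoxia lung arrays and at or below 7.02 on the other 9.

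Inhba encodes the beta A subunit, of which activin A is a dimer, and it changed the most of the members. In normoxia lung its 3 arrays read 5.06, 5.55 and 5.43, and in hyperoxia lung they read 10.54, 10.43 and 9.79. The groups lay far apart, with the lowest exposed array over 4 units above the highest control. Group means were 5.35 ± 0.25 and 10.25 ± 0.41 (SD, n = 3), a change of 4.91 (SE 0.22) or 30.0-fold (adjusted p = 1.15e-08 from limma). The probe was detected on 2 of 3 normoxia lung arrays, so the size rests on a control level near background. On the intensity scale as deposited, controls read 124 to 145 and exposed arrays 901 to 2222, and with no background correction the change was 3.14 (adjusted p = 9.28e-08).

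In the ileum the difference of Inhba was small. Normoxia ileum arrays read 7.02, 6.45 and 6.56, and hyperoxia ileum arrays 6.55, 6.38 and 6.32. These groups overlapped, and the change of -0.26 (95% interval -0.74 to 0.22) did not pass the test (adjusted p = 0.401 from limma). Ordered by mean, normoxia lung was lowest at 5.35, hyperoxia ileum (6.42 ± 0.12, SD, n = 3) and normoxia ileum (6.68 ± 0.30) did not differ beyond their spread, and hyperoxia lung stood highest. Without the exposure Inhba was the only member called higher in ileum than in lung, by 2.51-fold (log2 difference of lung minus ileum -1.33, SE 0.22, adjusted p = 1.57e-04 from limma).

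Fst encodes follistatin, which binds activins with high affinity. Its 3 normoxia lung arrays read 6.12, 5.85 and 5.44 and its hyperoxia lung arrays 7.87, 8.08 and 8.27. All exposed arrays lay above all controls. Means were 5.81 ± 0.34 and 8.07 ± 0.20 (SD, n = 3), so that Fst rose by 2.26 (SE 0.26) or 4.80-fold (adjusted p = 3.47e-05 from limma). With no background correction the rise was 1.18 (adjusted p = 1.44e-05).

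Ileal Fst lay near the detection limit, with 5.85, 5.46 and 5.19 in normoxia and 4.82, 5.78 and 5.37 in hyperoxia, each group detected on 2 of 3 arrays. The groups overlapped, and the change of -0.18 (95% interval -0.73 to 0.37) did not pass (adjusted p = 0.631 from limma). Normoxia lung, normoxia ileum and hyperoxia ileum overlapped one another, and hyperoxia lung alone stood above them.

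Fstl3, the gene of follistatin-like 3, another secreted protein that binds activin and myostatin, rose by less. Normoxia lung arrays read 7.16, 7.61 and 7.33 and hyperoxia lung arrays 8.30, 8.35 and 7.58. The lowest exposed array lay below the highest control, so the groups overlapped. Means were 7.37 ± 0.23 and 8.08 ± 0.43 (SD, n = 3), a rise of 0.71 (SE 0.22) or 1.64-fold (adjusted p = 0.0342 from limma). Of 25 alternative settings 15 kept this call, with adjusted p from 0.00122 to 0.133. It was lost without normoxia lung replicate 1 (0.61, adjusted p = 0.133), without normoxia lung replicate 3 (0.69, adjusted p = 0.0884), without hyperoxia lung replicate 1 (0.60, adjusted p = 0.126) and without hyperoxia lung replicate 2 (0.57, adjusted p = 0.129). The other losses came with the deposited normalized values, with no detection filter, with each tissue fitted alone and with the replicate block. The ordinary linear model and signal over background as a covariate lost the call too. In the ileum the probe was detected on none of 6 arrays and was not tested.

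Promoter sequence is shown for the genes called higher in hyperoxic lung that had a window. RefSeq windows (GRCm38.p6) of the 250 bases before the annotated transcript start were at hand for 8 of the 10 genes, in 9 windows, and Fst and Tgfb3 had no entry. The windows below run 5′ to 3′ at chr13:16011601-16011850 (Inhba, plus strand) and chr10:79777024-79777273 (Fstl3, plus strand), with capitals at matches to 3 motifs searched on both strands.
Inhba: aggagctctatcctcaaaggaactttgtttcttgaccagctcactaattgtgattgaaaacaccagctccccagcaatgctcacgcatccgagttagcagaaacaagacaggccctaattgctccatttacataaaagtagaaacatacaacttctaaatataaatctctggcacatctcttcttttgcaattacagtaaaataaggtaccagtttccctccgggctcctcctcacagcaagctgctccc
Fstl3: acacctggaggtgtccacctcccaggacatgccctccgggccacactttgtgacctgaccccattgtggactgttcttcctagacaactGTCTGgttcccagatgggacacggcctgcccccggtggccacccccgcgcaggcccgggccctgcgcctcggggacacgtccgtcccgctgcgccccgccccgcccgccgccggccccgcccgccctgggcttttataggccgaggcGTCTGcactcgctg
The motifs were the SMAD box CAGAC, the AP-1 site with the letters TGANTCA, and the cyclic AMP response element, whose letters are TGACGTCA. Their letters do not overlap one another in these windows. A SMAD box was found in 42.2% of 32851 mouse windows of this length, an AP-1 site in 6.75% and a cyclic AMP response element in 1.55%. Fstl3 held 2 SMAD boxes, which begin 161 and 14 bases before the transcript start, and none of the 3 motifs occurs in the Inhba window. That Inhba window lies inside the annotated gene (chr13:16004256-16031609), before an internal transcript start. Sequence ahead of the first base of the Inhba gene was not searched, whereas the Fstl3 window ends at the start of its gene. The Tgfb2 window and 1 of 2 Tgfbr1 windows also lie inside their genes. Among all members 4 of 9 windows held a SMAD box (those of Fstl3, Tgfb2, Tgfbr2 and 1 of 2 for Tgfbr1), and none held another motif searched. These are matches of letters only.

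Tgfb1, the gene of the TGF-beta isoform known as the main one in immune cells and platelets, fell in the ileum and did not pass in the lung. Normoxia ileum arrays read 7.61, 7.25 and 7.65 and hyperoxia ileum arrays 6.18, 6.90 and 5.82. All exposed arrays lay below all controls, with a wider spread. Means were 7.50 ± 0.22 and 6.30 ± 0.55 (SD, n = 3), so ileal Tgfb1 fell by 1.20 (SE 0.25) or 2.30-fold (adjusted p = 0.00493 from limma), and it was called in 25 of 25 alternatives, by -1.55 to -0.61. With no background correction the change was -0.61 (adjusted p = 0.0119). In the lung, arrays read 9.28, 9.69 and 9.56 in normoxia and 9.31, 9.49 and 9.83 in hyperoxia, a change of 0.03 (95% interval -0.50 to 0.57, adjusted p = 0.944).

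Some other measures moved with ileal Tgfb1 and others did not. T cell markers fell for 4 of 4 tested genes, from a mean level of 6.90 to 7.45 on normoxia ileum arrays to 5.45 to 5.82 in hyperoxia, where 2 of the 4 were detected on no array. Of 4 tested platelet markers 1 fell (Gp1bb, -2.33, adjusted p = 2.08e-04 from limma). The mean level of the platelet list was 6.40 to 6.62 in normoxia and 5.48 to 6.23 in hyperoxia. That mean is over 5 genes, Gp1bb among them, of which 1 was detected on no ileum array. Signal over background was lower on all 3 hyperoxia ileum arrays, as given above, and with it as a covariate the Tgfb1 change was -1.55 (adjusted p = 0.0323). Markers of ileal epithelium fell for 5 of 8, from a mean level of 11.95 to 12.06 down to 11.09 to 11.25, which do not overlap. Of the 2 tested B and plasma cell markers 1 fell, and their mean level was 8.00 to 9.28 in normoxia and 7.28 to 7.78 in hyperoxia. Macrophage markers rose for 1 and fell for 1 of 4 tested. The mean level of 5 macrophage genes, 1 of them detected on no ileum array, overlapped. It was 7.83 to 8.03 in normoxia and 7.92 to 8.12 in hyperoxia. Endothelial markers fell for 2 and rose for 1 of 8. T cell markers fell for 4 of 4 genes in hyperoxic lung as well (7.82 to 8.18 against 5.65 to 7.24), where Tgfb1 did not pass. The part of any of these cell types and of signal strength in the fall of ileal Tgfb1 was not tested further.

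Tgfb2 and Tgfb3, isoforms known from mesenchyme and epithelium of developing organs, passed in neither tissue. Lung Tgfb2 read 9.88, 9.64 and 9.66 in normoxia and 9.70, 9.55 and 9.45 in hyperoxia (-0.16, 95% interval -0.52 to 0.20, adjusted p = 0.563 from limma). Ileal Tgfb2 read 6.93, 7.10 and 6.73 against 7.03, 7.20 and 7.48 (0.32, 95% interval -0.04 to 0.68, adjusted p = 0.174). Both pairs of groups overlapped, and the intervals leave room for a change below 2-fold in either tissue. Tgfb3 lay at 9.98 to 10.25 in normoxia lung and 10.08 to 10.40 in hyperoxia lung (0.14, 95% interval -0.27 to 0.54), and at 7.59 to 8.08 and 7.59 to 8.15 in the ileum (-0.02, 95% interval -0.43 to 0.38).

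Bmp4 encodes a bone morphogenetic protein, a ligand of the SMAD1/5/9 branch of the family, and was read by a pair of probes that pointed in opposite directions in the lung. The brighter probe read 10.95, 10.94 and 10.95 in normoxia lung and 11.03, 10.95 and 9.93 in hyperoxia lung. A single low array, hyperoxia lung replicate 3, made most of the change of -0.31 (95% interval -0.87 to 0.26, adjusted p = 0.464 from limma), which was 0.05 without that array. The dimmer probe read 6.04, 6.37 and 6.96 against 7.97, 7.25 and 6.65, a change of 0.83 (SE 0.33) that did not pass either (adjusted p = 0.0981 over all probes). In the ileum the probes changed by -0.19 (adjusted p = 0.605) and 0.31 (adjusted p = 0.509).

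**Figure D2:**
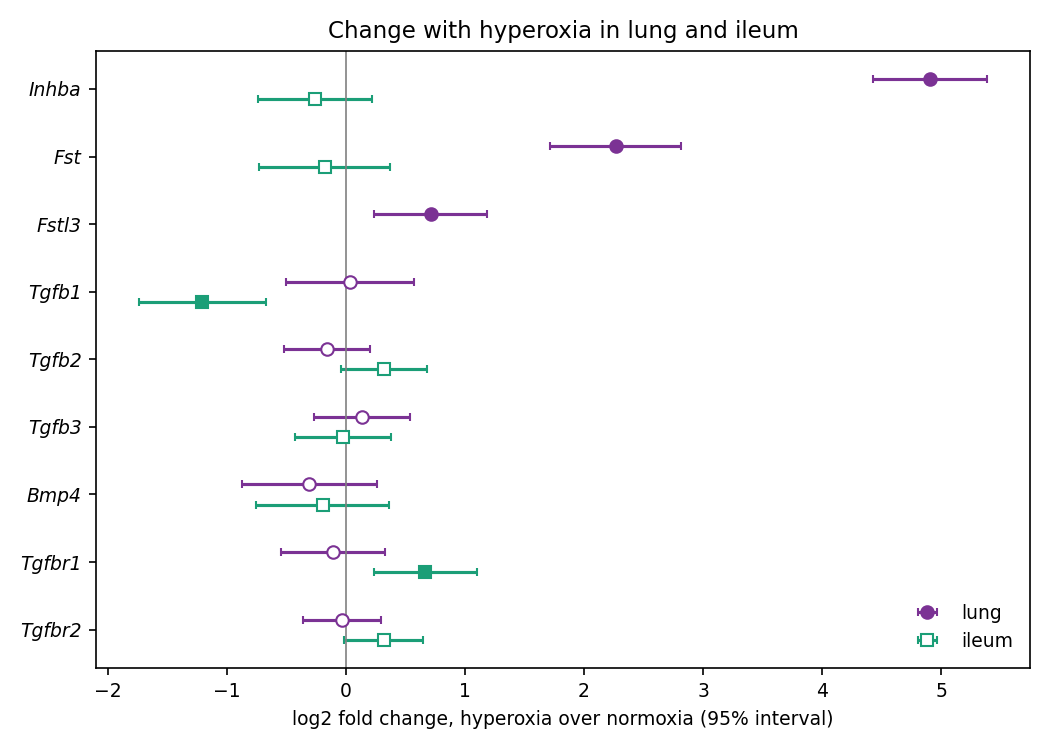
Log2 fold change of hyperoxia over normoxia (horizontal axis) with its 95% interval for each of the 9 genes, lung as purple circles and ileum as green squares; a filled symbol passed at an adjusted p under 0.05, and ileal Fstl3, detected on no ileum array, has no point. The filled lung symbols are Inhba (4.91), Fst (2.26) and Fstl3 (0.71), and the filled ileum symbols are Tgfb1 (-1.20) and Tgfbr1 (0.67).

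Of the receptors, Tgfbr1 encodes the type I receptor kinase that phosphorylates SMAD2 and SMAD3 on TGF-beta binding, and 4 probes were named for it. Its brightest probe read 11.44, 11.16 and 11.05 in normoxia ileum and 11.54, 11.82 and 12.30 in hyperoxia ileum. The groups did not overlap, though the lowest exposed array lay close to the highest control. Means were 11.22 ± 0.20 and 11.89 ± 0.38 (SD, n = 3), and the rise of 0.67 (SE 0.20) or 1.59-fold passed (adjusted p = 0.0275 from limma). On the intensity scale as deposited the groups overlapped, at 2321 to 2984 in normoxia and 2344 to 3734 in hyperoxia. The next brightest probe read 7.20, 6.12 and 6.55 against 7.03, 7.35 and 8.41, which overlap, and rose by 0.97 (SE 0.32, adjusted p = 0.0380 over all probes). The other Tgfbr1 probes were not tested in the ileum: 1 was detected on no array and 1 on 1 array of each ileum group.

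The Tgfbr1 call was not firm. It held in 17 of 25 alternatives, with adjusted p from 0.00406 to 0.192. Leaving out normoxia ileum replicate 2 (0.64, adjusted p = 0.0762), normoxia ileum replicate 3 (0.58, adjusted p = 0.107) or hyperoxia ileum replicate 3 (0.46, adjusted p = 0.0878) ended the call, as did the fit with signal over background as a covariate (0.67, adjusted p = 0.192). In the lung the brightest probe read 10.77, 11.24 and 11.08 against 10.96, 10.87 and 10.93, a change of -0.11 (95% interval -0.54 to 0.33, adjusted p = 0.767).

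Tgfbr2, the gene of the type II receptor that binds TGF-beta first, passed in neither tissue. Its brightest probe read 12.77, 12.47 and 12.68 in normoxia lung and 12.56, 12.83 and 12.44 in hyperoxia lung (-0.03, 95% interval -0.36 to 0.30, adjusted p = 0.912 from limma). In the ileum it read 11.38, 11.36 and 11.31 against 11.59, 11.72 and 11.70. These ileal groups did not overlap, but the change of 0.32 (95% interval -0.01 to 0.65) missed the threshold (adjusted p = 0.138). A second probe, tested in the lung only, read 5.57, 6.08 and 6.09 against 6.24, 6.46 and 6.13 (0.36, adjusted p = 0.183 over all probes). The other 2 Tgfbr2 probes were detected on at most 1 array of a group.

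**Figure D3:**
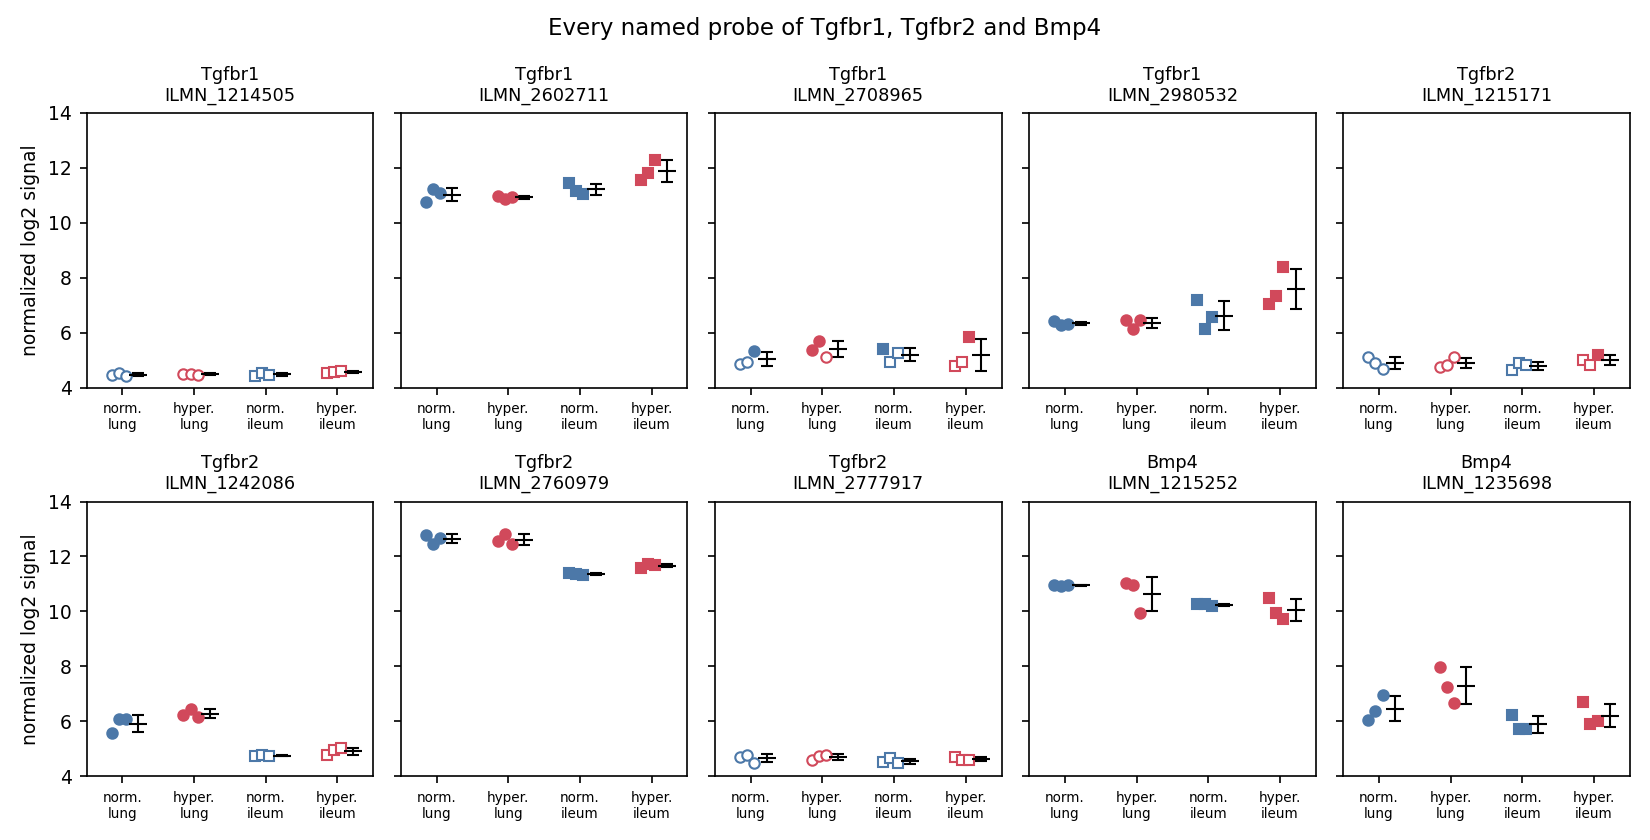
Normalized log2 signal (vertical axis) of all 10 named probes of Tgfbr1, Tgfbr2 and Bmp4 on each array, by group, with mean and SD; normoxia is blue, hyperoxia red, and open symbols were not detected. Each gene has 1 bright probe, and 2 Tgfbr1 and 2 Tgfbr2 probes lie mostly at background.

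Whether the exposure effect differed between the tissues was tested as ileum minus lung. It differed for 3 of 9 members, all more negative in the ileum, beside 25.6% of 12153 genes (13.3% negative and 12.3% positive). Inhba differed by -5.17 (SE 0.32, adjusted p = 4.34e-07 from limma), Fst by -2.44 (SE 0.36, adjusted p = 4.94e-04) and Tgfb1 by -1.24 (SE 0.35, adjusted p = 0.0218). The Tgfb1 difference was lost without normoxia lung replicate 1 (-1.12, adjusted p = 0.0591) and without normoxia ileum replicate 3 (-1.16, adjusted p = 0.0552). The ordinary linear model and array weights lost the Tgfb1 difference too. For Tgfbr1 the difference of 0.78 did not pass (adjusted p = 0.0606), so its rise in the ileum was not shown to differ from the lung. Fstl3 (-0.69, adjusted p = 0.117), with no detected ileal signal, did not pass either.

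The tissues also differed without the exposure. Between normoxia lung and normoxia ileum 7 of 9 members were called, 6 higher in lung and 1 (Inhba) higher in ileum, beside 55.5% of all genes (29.4% higher in lung and 26.1% higher in ileum). The median difference of the members was 1.29 and that of all genes 0.03. All 3 TGF-beta isoforms were higher in lung: Tgfb2 by 2.80 (6.99-fold, adjusted p = 5.01e-09 from limma), Tgfb3 by 2.20 (4.60-fold) and Tgfb1 by 2.01 (4.02-fold). Tgfbr2 was 2.45-fold higher in lung (adjusted p = 6.60e-06), and Bmp4 1.63-fold (adjusted p = 0.0337), the latter called in 14 of 24 alternatives and lost on leaving out any 1 of the 6 normoxia arrays (adjusted p from 0.0681 to 0.0809). Fstl3 was below detection on all ileum arrays, so it was tested through the lung arrays alone. On background-corrected signal lung was at least 4.26-fold higher. The bound was set against the lowest signal among detected probes or the probe's own signal, whichever was higher. The adjusted p of 5.08e-07 from limma belongs to the measured difference of 2.36, not to the bound. With no background correction the measured difference was 0.98 (adjusted p = 5.06e-05), so the bound depends on that correction. The dimmer Bmp4 probe differed by 0.57 between the normoxia tissues, with groups that overlapped, and did not pass (adjusted p = 0.164 over all probes). Tgfbr1 (-0.19, adjusted p = 0.458) and Fst (0.31, adjusted p = 0.331) did not pass.

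Around these members, 93 other genes of the activin, TGF-beta and BMP pathways were listed by role. In the lung 62 were tested, of which 15 rose and 12 fell (43.5% called), and in the ileum 58 were tested, of which 8 rose and 10 fell (31% called). The lung share stands beside 20.5% of all genes and the ileum share beside 26.8%. For each list below, the shares of all genes were 9.90% higher and 10.6% lower in the lung. They were 12.7% and 14.1% in the ileum. A single gene called in a list lies near these shares. Median changes were 0.05 and 0.12.

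**Figure D4:**
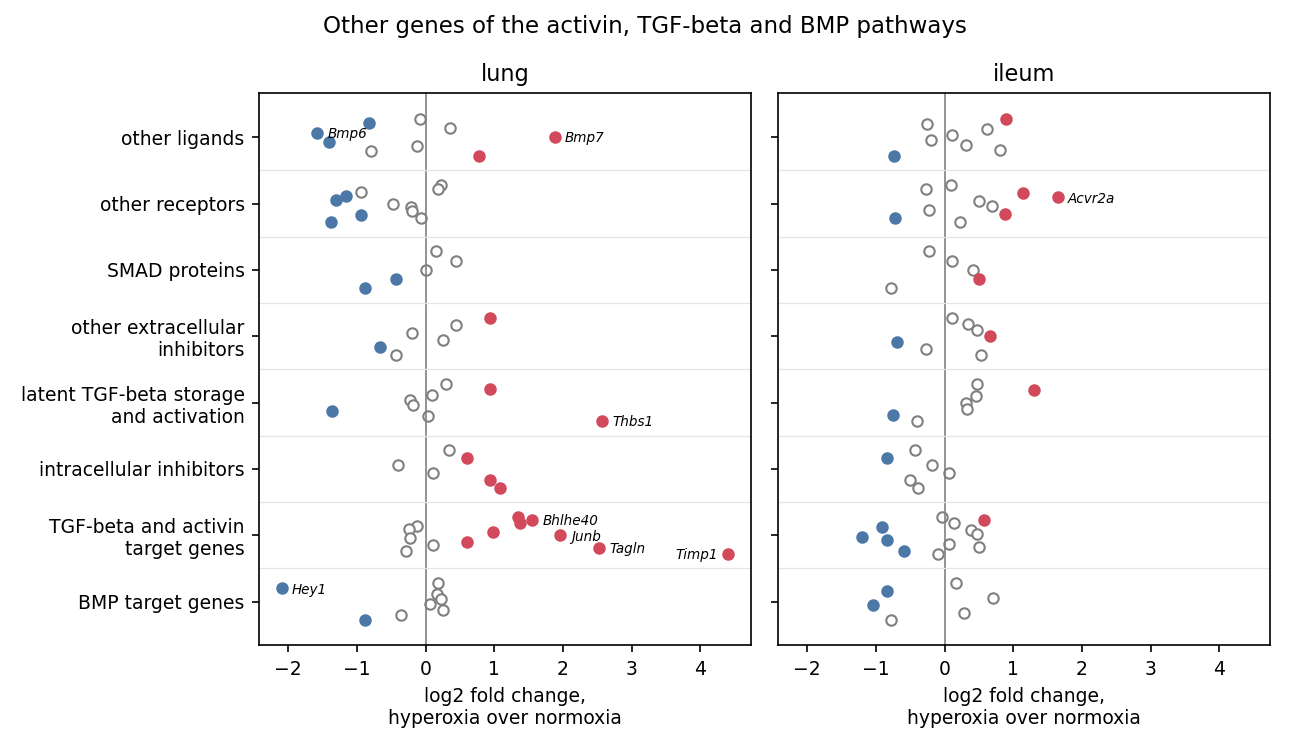
Log2 fold change of hyperoxia over normoxia (horizontal axis) for each tested gene of 8 pathway lists in lung (left) and ileum (right); red rose and blue fell at an adjusted p under 0.05, open circles did not pass, and genes called with a change beyond 1.5 are named. In the lung the target gene list lies mostly to the right of 0, led by Timp1 (4.41), and the called receptors lie to the left.

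Genes known to respond to TGF-beta or activin rose in the lung for 8 of 13 tested, fell for 0 and did not pass for 5, with a median of 0.99. Timp1, an inhibitor of metalloproteinases, rose by 4.41 (SE 0.34), Tagln, an actin-binding protein of smooth muscle, by 2.53 (SE 0.22), Junb, a subunit of AP-1, by 1.96 (SE 0.22) and Bhlhe40, a transcriptional repressor, by 1.55 (SE 0.18). Adjusted p-values (limma) of these were 1.28e-06, 3.27e-06, 3.78e-05 and 5.00e-05. Tagln and Acta2 (1.34), smooth muscle actin, belong to the smooth muscle markers too. In that list 4 of 5 tested genes rose. The mean level of its 6 genes, 1 of them detected on no lung array, was 8.77 to 9.18 on normoxia lung arrays and 10.00 to 10.33 in hyperoxia. Macrophage markers rose for 4 of 5, from 8.17 to 8.41 up to 8.94 to 9.55, mesothelial markers for 2 of 4, and fibroblast markers rose for 2 and fell for 3 of 8. Of the 4 macrophage markers, Ccr2 was detected on no normoxia lung array and on all 3 hyperoxia lung arrays. It was thus tested through the exposed group alone. The part of these cell types in the rises of Inhba, Fst, Fstl3 and the target genes was not tested.

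In the ileum the same target list had 1 gene that rose and 4 that fell of 12 tested, with a median of 0.02. Bhlhe40 rose by 0.57 (SE 0.18), and Junb (-1.20), Pmepa1 (-0.83), a membrane protein that dampens SMAD signalling, Col1a1 (-0.91) and Tgfbi (-0.59), both of the extracellular matrix, fell. The exposure effect was more negative in ileum than in lung for 7 of 13 target genes and more positive for 0. Over all genes these shares were 13.3% and 12.3%. Junb differed by -3.17, Timp1 by -4.51, Tagln by -2.02 and Pmepa1 by -1.43.

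Among the other receptors 4 of 11 fell in the lung and 0 rose. Tgfbr3, the co-receptor betaglycan, fell by 1.37 (SE 0.24), Acvrl1, an endothelial type I receptor, by 1.31 (SE 0.21), Acvr2b, a type II activin receptor, by 1.15 (SE 0.20), and Bmpr2, the type II BMP receptor, by 0.94 (SE 0.28). Endothelial markers fell for 6 of 8 in the same arrays, from a mean level of 11.03 to 11.12 in normoxia to 9.91 to 10.27 in hyperoxia, and their part in the receptor changes was not tested. In the ileum 3 of 10 rose, namely the activin receptor genes Acvr2a (1.65, SE 0.33) and Acvr1c (1.13, SE 0.24) and also Bmpr2 (0.87, SE 0.28), while Eng, an endothelial co-receptor, fell by 0.72 (SE 0.20). The effect was more positive in ileum than in lung for 6 of 12 receptors and more negative for 0, beside 12.3% and 13.3% of all genes. Of these 6, 4 were tested in both tissues. Acvrl1 was tested in the lung only and Acvr1c, detected on no lung array, in the ileum only, so for them a change in 1 tissue is set against a signal near background in the other.

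Other ligands went both ways in the lung, with 2 that rose and 3 that fell of 9. Bmp7 was below detection on all 3 normoxia lung arrays and detected on all 3 hyperoxia lung arrays, so it was tested through the exposed group alone and was at least 3.12-fold higher there (adjusted p = 8.39e-05 from limma). That bound rests on background-corrected signal, and its size with no background correction was not determined. Lefty1, a secreted antagonist of nodal, rose by 0.78 (SE 0.18), while Bmp6 fell by 1.57 (SE 0.27), Gdf10 by 1.40 (SE 0.18) and Bmp3 by 0.82 (SE 0.23). Ileal Bmp1, a metalloproteinase that carries the BMP name, rose by 0.90 and Lefty1 fell by 0.74, of 8 tested. Of 5 SMAD genes tested in each tissue, Smad5 (-0.42) and the inhibitory Smad6 (-0.88) fell in the lung, and Smad5 rose by 0.51 in the ileum.

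Genes that store or activate latent TGF-beta included Thbs1, the activator thrombospondin 1, which rose by 2.57 (SE 0.35) in the lung, and Itgb6, a subunit of an activating integrin, which rose by 0.94 in the lung and 1.31 in the ileum. Ltbp4, a latent TGF-beta binding protein, fell by 1.36 in the lung and by 0.76 in the ileum. The remaining 5 of 8 and 5 of 7 of that list did not pass. Other extracellular inhibitors gave 1 rise and 1 fall in each tissue, of 6 tested in lung and 7 in ileum. These were Bmper (0.94) and Nbl1 (-0.67) in lung and Grem1 (0.66) and Nbl1 (-0.69) in ileum. Of intracellular inhibitors, Tgif1 (1.08), Smurf1 (0.94) and Pmepa1 (0.60) rose in the lung, 3 of 6, and Pmepa1 fell in the ileum, 1 of 6. Of BMP target genes Hey1 (-2.10) and Smad6 fell in the lung, 2 of 8, and Id1 (-0.84) and Id3 (-1.04), which are direct SMAD targets, fell in the ileum, 2 of 6.

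The genes whose signal ran most like the 2 members with the strongest exposure effect were listed over the 12 arrays and 12153 genes, as a description. For Inhba these were Rgs16 (Pearson r = 0.977), Ccl2 (0.970), Pvt1 (0.969), Gtse1 (0.967) and Pla1a (0.966). For Fst they were Cxcl1 (0.983), Mmp12 (0.975), Etv4 (0.974), Ch25h (0.972) and Ccl3 (0.967). The arrays of a group share tissue and exposure, so the points are not independent.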

How the data were processed

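Total RNA was labelled with biotin and read on 12 single-colour MouseWG-6 bead arrays. The authors deposited bead-averaged probe intensities from GenomeStudio 2011.1 (submitters' processing notes) with no background correction or normalization, and the deposited detection p-value sets each probe against its array's negative controls. A second deposited table of background-subtracted and quantile-normalized intensity served as an alternative, and its exact computation is not stated in the sources used here. The function neqc of limma 3.58.1 (R 4.3.3) corrected the background with an offset of 16, quantile-normalized all arrays to 1 distribution across both tissues and took log2. Background correction widens the folds of dim probes.

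Of 45281 probes 34885 had 1 gene symbol and were used, 18 had several and 10378 had none listed. A probe was tested in a tissue at a detection p under 0.05 on at least 3 of 6 arrays, and a gene took its brightest tested probe. Group means of the 4 groups were fitted with limma over all 12 arrays, with Benjamini-Hochberg adjustment in each comparison, and single probes were fitted in the same way over all tested probes. No exact test was made, since 3 against 3 arrays cannot go below p = 0.1. The array number limits the precision. The fit was tested on simulated data.

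Members, lists, tests and alternatives were chosen with earlier results of these data known. Named genes were all members, up to 4 genes of each list by moderated statistic, any gene in a count of 5 or fewer, and the 5 genes most like each of 2 members. Acta2, Gp1bb, Ccr2, Cd2 and Cd3e were named after their values were seen. Alternatives covered background correction, scaling, filters, probes, moderation, array weights, a signal covariate, the replicate number and leaving out each array. Promoters came from RefSeq (GRCm38.p6). Plots used Python 3.11.15 with matplotlib 3.10.9.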

Additional observations from a re-analysis of the deposited data

Results flagged for a closer look

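For 3 genes the effect of hyperoxia differed between ileum and lung by the test of the difference itself (limma, ileum minus lung). Inhba differed by -5.17 (adjusted p = 4.34e-07), and it was called in 24 of 24 alternatives, from -5.40 to -3.27. Fst differed by -2.44 (adjusted p = 4.94e-04), called in 24 of 24 alternatives, from -2.95 to -1.24. Tgfb1 differed by -1.24 (adjusted p = 0.0218), called in 20 of 24 alternatives, from -1.67 to -0.56.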

How the results depend on the processing

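In the lung 2 to 3 members were called over all alternatives, and Inhba and Fst were called in each alternative that tested them. With detection required on all 6 arrays of a tissue, lung Inhba and ileal Fst were not tested. In the ileum 2 members were called, and 1 with scaling to the 75th percentile, with each tissue fitted alone, with the ordinary linear model and with signal over background as a covariate, the call lost being Tgfbr1 each time, and 1 to 2 on leaving out single arrays. With array weights it was 3, Tgfbr2 (adjusted p = 0.0332) being added. Over all 11178 genes tested in the ileum the main fit called 2995 (26.8%). That count was 643 with the covariate, 1465 with the ileum fitted alone and 4673 with array weights, so the share depends on the setting. The covariate does not overlap between the ileum groups, so it cannot be told apart from the exposure there. Calls of the difference between tissues numbered 2 to 4 and those between normoxia tissues 6 to 7.

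The replicate block called 1 member in the ileum, where Tgfbr1 was lost (adjusted p = 0.0713), 2 in the lung, where Fstl3 was lost (adjusted p = 0.0516), and 3 for the difference between tissues. Between normoxia tissues that fit compares the levels fitted for replicate 1 alone, not the group means. Its 6 calls there, with Bmp4 lost (adjusted p = 0.163), are therefore not like the main fit. The counts out of 24 alternatives for that comparison include it. Within a tissue, arrays with the same replicate number did not deviate together (r of -0.15 to -0.03 in lung and -0.24 to -0.02 in ileum). Across tissues r was -0.08 to -0.01 in hyperoxia but 0.03 to 0.09 in normoxia, where each array correlated best with its own number, a weak hint from the data that normoxia numbers may be shared between tissues. The labels do not say so, and the numbers were not treated as pairs. Bead chip was not used as a block, since the sources used here name no chip.

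Signs turned only for values that never passed. With the mean of tested probes these were lung Tgfbr2 (0.17), Tgfbr1 (0.090) and Bmp4 (0.26), ileal Bmp4 (0.058), and the difference between tissues of Bmp4 (-0.21). With array weights they were lung Tgfb1 (-0.073), ileal Tgfb3 (0.36) and Fst (0.14), and the difference of Bmp4 (-0.17) and Tgfb3 (0.20). With the covariate they were ileal Bmp4 (0.50), Tgfb3 (0.12) and Inhba (0.23), and the difference of Tgfb3 (0.021). Leaving out single arrays, lung Tgfbr2 ranged from -0.14 to 0.054, Tgfb1 from -0.11 to 0.15 and Bmp4 from -0.50 to 0.047, ileal Tgfb3 from -0.17 to 0.12 and Fst from -0.41 to 0.075, and the difference of Bmp4 from -0.24 to 0.31.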
